A study of Homo sapiens with 6 samples.

Results

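S100 proteins are small calcium sensors that change shape when calcium binds to their EF hands, helix-loop-helix motifs that hold the ion. They work mostly as dimers, and each member has its own partners: some act inside the cell on annexins, myosin or p53, and others are released and act on surface receptors such as RAGE (gene AGER) and TLR4. Most of the genes lie in a cluster on the long arm of chromosome 1, within the region that also holds the genes of epidermal differentiation. In squamous epithelium, S100A7, S100A8 and S100A9 are known as proteins of inflamed, wounded or hyperproliferative keratinocytes. The values of 10 of these genes are described here: S100A2, S100A4, S100A6, S100A7, S100A8, S100A9, S100A10, S100A11, S100A14 and S100A16. They are the 10 rows, of 60564 genes in the deposited count table, whose symbol is on that list, and all 10 passed the filter on low counts.

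RNA was sequenced from CAL27, an established human cell line of oral (tongue) squamous cell carcinoma, in 2 groups of 3 libraries. The CNTNAP2-203 OE group (OE, overexpression) carried a lentivirus encoding CNTNAP2-203 (1 transcript of CNTNAP2, an adhesion gene), and the control group (genotype labelled WT) carried a lentivirus with the control vector, for which the sample descriptions name EGFP. Both groups were infected and then selected with 5 μg/ml puromycin for 2 weeks, in medium with serum. The labels describe stable lines made by infection and do not say whether replicates came from separate infections or cultures, so the p-values cover the spread among these libraries alone, and that spread may be technical. The series asks how CNTNAP2-203 promotes the growth of these cells.

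Library totals ranged from 36843190 to 42412703 counts. CNTNAP2 had 0, 3 and 4 counts in the controls and 140022, 156055 and 119280 in OE replicates 1, 2 and 3, as the labels say. OE replicate 3 stood apart from the other libraries of its group: its total was the lowest, and 25336 genes had a count there, against 26418 to 27002 in the others. All 10 members had their highest OE level in that library, so each result below is also given without it where that matters. All 8 epithelial markers on the list, not all of them particular to squamous cells, were expressed. None was called between the groups: 3 had positive and 5 negative log2 fold changes. KRT5 was at 5126 ± 496 CPM in control and 6500 ± 557 CPM in OE (SD, n = 3 each; CPM is counts per 1e+06 after scaling of the libraries by TMM). The 2 with the smallest p were lower in OE, KRT17, a keratin of activated keratinocytes, at 2316 ± 95.5 and 1559 ± 259 CPM (edgeR adjusted p = 0.0848), and DSG3, a desmosomal cadherin, at 226 ± 35.2 and 145 ± 23.7 CPM (edgeR adjusted p = 0.104). KRT17 passed in 4 of 16 alternatives, among them without OE replicate 3 (edgeR adjusted p = 0.00591) and by DESeq2 (adjusted p = 0.00476). It did not pass in the other 12, with an edgeR adjusted p of 0.311 without control replicate 3.

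None of the 10 members passed the test between OE and control (edgeR quasi-likelihood, adjusted p under 0.05 over all 18786 tested genes), against a background of 1.39% of tested genes called (0.798% higher and 0.596% lower in OE). At an unadjusted p under 0.05 there were 8 of the 10, against 17.2% of all tested genes. The levels of 7 members did not overlap between the groups, which was so for 26.5% of all tested genes. The members were chosen with earlier results of these data known, so neither count is a test of the family. The means went both ways: S100A7, S100A8, S100A9 and S100A14 were lower in OE, and S100A2, S100A4, S100A6, S100A10, S100A11 and S100A16 were higher. The median log2 fold change of the members was 0.24, beside -0.004 for all tested genes, and without OE replicate 3 it was 0.06. DESeq2 called 3 of the members (S100A2 higher, S100A7 and S100A8 lower), where it called 7.11% of all genes with an adjusted p. Limma-voom called none, with 1.24% of all genes called, and edgeR without OE replicate 3 called 1, S100A14, as lower, with 2.8% of all genes called.

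All 10 genes lie on chromosome 1 (coordinates from GENCODE 29, GRCh38; the build named for the deposited data is hg38). S100A10 (1:151982915-151994390) and S100A11 (1:152032506-152047907) sit apart from the main run of the cluster, both on the minus strand. In the main run come S100A9 (1:153357854-153361027), which is the only member on the plus strand, then S100A8 (1:153390032-153391188) and S100A7 (1:153457744-153460701). S100A6 (1:153534599-153536244), S100A4 (1:153543613-153550136) and S100A2 (1:153561108-153567890) follow, and S100A16 (1:153606886-153613145) and S100A14 (1:153614255-153616986) come last among the members. The library kit keeps no strand information. S100A6 shares exon sequence with BX470102.1 on the opposite strand, so reads within the shared stretch cannot be assigned to 1 of these 2 genes. No other member shares exon sequence with an annotated gene. Genes outside the members that are named below and have the same limit include S100A1, S100A13, CACYBP, TLR4, SLC27A3, ILF2 and CD68.

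The start regions of 4 members are shown because their values carry the results below: S100A9 and S100A8, whose products form 1 heterodimer and whose levels kept a nearly fixed ratio, S100A7 as the member with the lowest log2 fold change, and S100A2, whose level per S100A9 lay far apart in the 2 groups. Each is the 250 bases before the RefSeq start site nearest to the gene's 5′ end, written 5′ to 3′ on the gene's strand (RefSeq, GRCh38.p14): chr1:153357604-153357853 on the plus strand for S100A9, and on the minus strand chr1:153391189-153391438 for S100A8, chr1:153460652-153460901 for S100A7 and chr1:153565845-153566094 for S100A2. Capitals mark matches to TATAAA (the TATA box) and TGANTCA (the AP-1 site), searched on both strands, and no match overlaps another.
S100A9: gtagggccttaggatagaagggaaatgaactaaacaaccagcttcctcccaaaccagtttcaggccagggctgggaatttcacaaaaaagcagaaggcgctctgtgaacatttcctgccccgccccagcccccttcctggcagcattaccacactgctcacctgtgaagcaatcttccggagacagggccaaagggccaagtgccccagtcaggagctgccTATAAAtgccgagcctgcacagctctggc
S100A8: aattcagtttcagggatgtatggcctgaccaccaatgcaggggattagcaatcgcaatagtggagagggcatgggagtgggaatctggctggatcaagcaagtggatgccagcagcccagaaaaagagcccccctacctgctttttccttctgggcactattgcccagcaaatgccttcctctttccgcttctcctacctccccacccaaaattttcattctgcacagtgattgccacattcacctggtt
S100A7: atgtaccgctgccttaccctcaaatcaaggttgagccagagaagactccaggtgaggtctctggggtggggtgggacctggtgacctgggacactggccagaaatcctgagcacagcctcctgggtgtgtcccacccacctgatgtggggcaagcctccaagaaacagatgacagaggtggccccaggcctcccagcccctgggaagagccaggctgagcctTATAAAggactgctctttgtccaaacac
S100A2: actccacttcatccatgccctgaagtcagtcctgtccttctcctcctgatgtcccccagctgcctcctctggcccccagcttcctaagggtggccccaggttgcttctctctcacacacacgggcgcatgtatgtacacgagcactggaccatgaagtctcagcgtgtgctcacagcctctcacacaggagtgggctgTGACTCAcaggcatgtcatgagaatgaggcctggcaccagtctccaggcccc

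A TATAAA match begins 29 bases before the start in S100A9 and 28 bases before it in S100A7, and S100A8 holds neither motif. In S100A2 the AP-1 match begins 52 bases before the start. Over the windows of the 10 members, TATAAA was present in 3 (S100A4, S100A7 and S100A9) and TGANTCA in 1, and of all 35116 RefSeq windows of the same length 10.7% and 6.57% hold them. TTGCNNAA, a C/EBP-type site, was in the window of 1 member, S100A11 (9.05% of all windows), and TTTCCCGC, an E2F site, in 0 of the 10 (1.39%). These matches describe the letters in the windows and were not tested against the levels.

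Per length, S100A9 was the highest member in every library. On the scale of deposited FPKM (fragments per kilobase, scaled to library size), it was at 4108 ± 526 in control and 2824 ± 517 in OE (SD, n = 3 each), which was 51.5% to 52.5% of the summed FPKM of the 10 members in the controls and 45.0% to 47.0% in OE. S100A7, at 1245 ± 295 FPKM in control and 748 ± 160 in OE, S100A8, at 866 ± 130 and 570 ± 97.1, and S100A11, at 612 ± 32.4 and 660 ± 116, came next. The order of these last 3 was not fixed: in single libraries S100A11 ranked from 2 to 4, S100A7 from 2 to 3 and S100A8 from 3 to 4. It also depends on the lengths behind the FPKM. The counts and FPKM imply 1086 bases for S100A8, 592 for S100A7, 792 for S100A11 and 699 for S100A9. In CPM, which takes no account of length, S100A8 was above S100A7 and S100A11 in every library. The control means were 928, 728 and 478 CPM, and the OE means 631, 451 and 533 CPM.

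S100A2 (350 ± 32.5 FPKM in control, 506 ± 95.8 in OE) had rank 5 and S100A6 (297 ± 42.5 and 400 ± 72.4) rank 6 in every library. S100A14 (180 ± 8.31 and 131 ± 23.6) and S100A10 (153 ± 2.20 and 223 ± 65.5) came next, with S100A14 above S100A10 in the 3 controls and below it in the 3 OE libraries. S100A16 (68.7 ± 8.94 and 83.2 ± 11.9) had rank 9 and S100A4 (4.002 ± 0.117 and 5.79 ± 1.16) was lowest in each library.

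**Figure D1:**
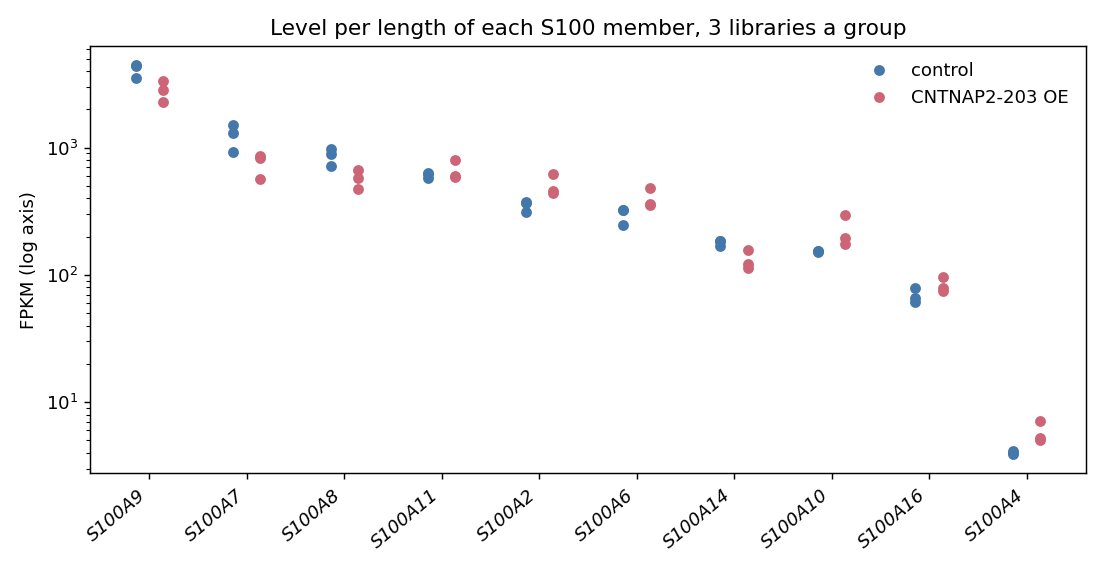
Deposited FPKM of the 10 members on a log axis, 1 point per library, with control in blue and CNTNAP2-203 OE in red, ordered by the control mean. S100A9 is highest throughout and S100A4 lowest, at 4.002 FPKM on average in control.

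The members known as released alarm proteins of keratinocytes had lower means in OE. S100A8 and S100A9 form calprotectin, a heterodimer that binds calcium, zinc and manganese. S100A8 was at 963, 770 and 1051 CPM in control replicates 1, 2 and 3 and at 512, 619 and 762 CPM in OE replicates 1, 2 and 3. Each OE library lay below each control, with OE replicate 3 close to control replicate 2. The difference of 1.47-fold (log2 fold change -0.56, SE 0.172, edgeR adjusted p = 0.163) did not pass, and neither did the log2 fold change of -0.72 without OE replicate 3 (edgeR adjusted p = 0.0818).

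S100A9, the other subunit, was at 3035, 2403 and 3070 CPM in the controls and 1616, 1960 and 2466 CPM in OE. Here OE replicate 3 lay just above control replicate 2, so the groups overlapped in CPM, although in deposited FPKM the highest OE library (3339) lay below the lowest control (3501). The log2 fold change was -0.49 (SE 0.172, edgeR adjusted p = 0.2), and without OE replicate 3 it was -0.67 (edgeR adjusted p = 0.0716).

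S100A7 encodes psoriasin, an antimicrobial protein of the upper epidermis. It was at 880, 537 and 766 CPM in the controls and at 335, 484 and 535 CPM in OE. Control replicate 2 and OE replicate 3 nearly met, and the spread within each group was wide. Its log2 fold change of -0.69 (SE 0.230, edgeR adjusted p = 0.193) was the lowest of the 10 members and lay between -0.87 and -0.51 with 1 library left out (-0.835 without OE replicate 3). S100A7 has a near-identical neighbour, S100A7A, and no source used here says how reads matching both were counted, so the values of each are uncertain.

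S100A14, a member found at the cell surface and in the cytoplasm of epithelia, had the other lower mean. It was at 285, 260 and 285 CPM in the controls and at 191, 175 and 260 CPM in OE. OE replicates 1 and 2 lay well below the controls, and OE replicate 3 reached the lowest of them to within 1 CPM. The log2 fold change was -0.41 (SE 0.153, edgeR adjusted p = 0.227) over all libraries, and -0.60 without OE replicate 3, where it passed (edgeR adjusted p = 0.0179).

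**Figure D2:**
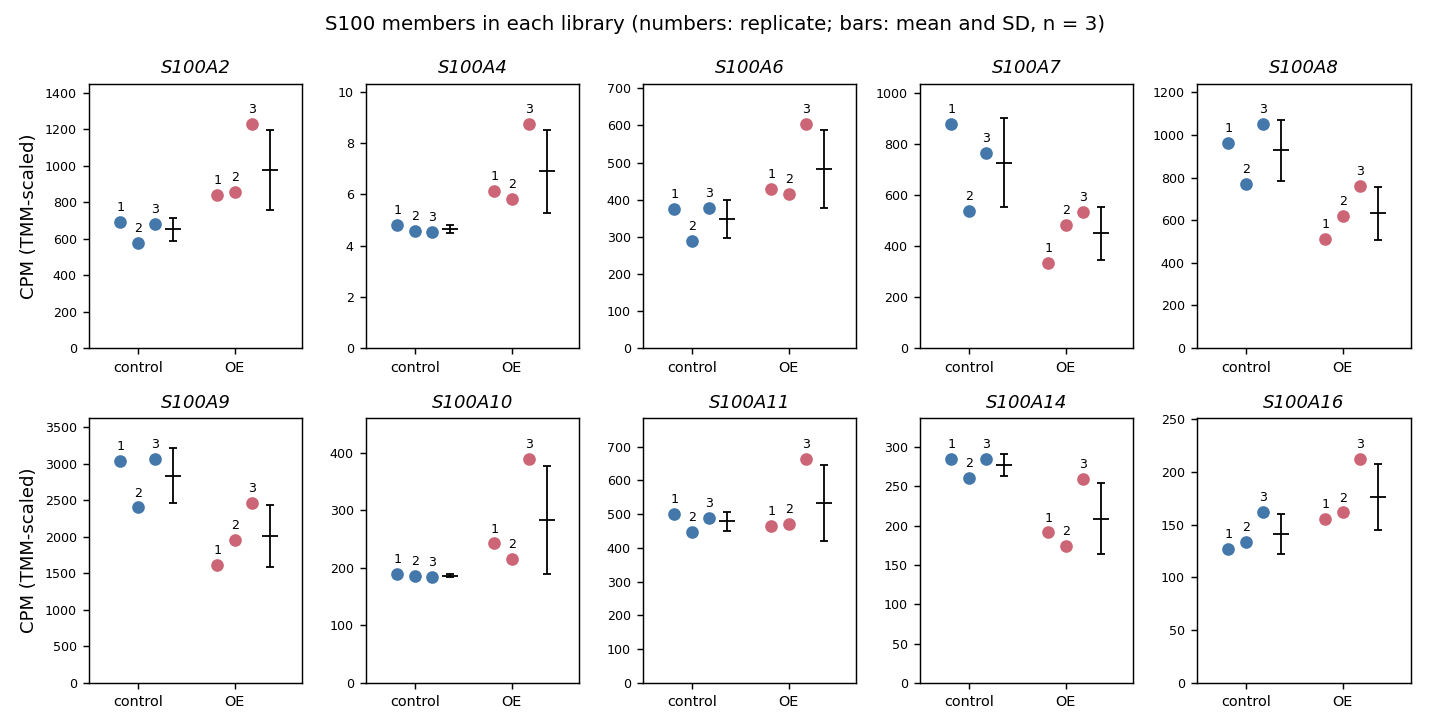
CPM of each member in each library, with control in blue and CNTNAP2-203 OE in red, replicate numbers beside the points, and the mean and SD of 3 libraries to the right of each group. OE replicate 3 is the highest OE library in all 10 panels, and S100A9, S100A11 and S100A16 overlap between groups.

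Among the members that work mainly inside the cell, S100A2, a p53-binding protein of basal keratinocyte nuclei, had the smallest p of the 10. It was at 693, 579 and 683 CPM in the controls and at 839, 856 and 1229 CPM in OE. All 3 OE libraries lay above all controls, with OE replicate 3 far above the others. The difference of 1.495-fold (log2 fold change 0.58, SE 0.165, edgeR adjusted p = 0.139) did not pass over all genes, and the log2 fold change was 0.38 without OE replicate 3.

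S100A10 (p11) forms a tetramer with annexin A2 and, unlike most of the family, does not bind calcium. Its values were 189, 186 and 184 CPM in the controls and 242, 216 and 389 CPM in OE. The controls lay within a few CPM of each other, and OE replicate 3 lay far above the other OE libraries. The log2 fold change of 0.60 (SE 0.211, edgeR adjusted p = 0.21) was the highest of the members, and it was 0.30 without that library (edgeR adjusted p = 0.0978).

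S100A6 (calcyclin) binds annexins and the ubiquitin ligase adaptor CACYBP. It was at 376, 288 and 378 CPM in the controls and at 428, 415 and 604 CPM in OE. The groups did not overlap, though OE replicates 1 and 2 were nearer to the higher controls than to OE replicate 3. Its log2 fold change was 0.47 (SE 0.175, edgeR adjusted p = 0.222), and 0.28 without OE replicate 3.

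S100A4 (metastasin), which binds non-muscle myosin and is known for cell motility, was the member with the fewest counts, 180 to 192 in the controls and 240 to 306 in OE. These correspond to 4.82, 4.56 and 4.54 CPM in the controls and 6.14, 5.81 and 8.75 CPM in OE, without overlap. The log2 fold change was 0.57 (SE 0.193, edgeR adjusted p = 0.19), and 0.36 without OE replicate 3.

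S100A11, an annexin A1 partner, and S100A16, a widely expressed member, differed least. S100A11 was at 499, 447 and 487 CPM in the controls and at 464, 472 and 664 CPM in OE. OE replicates 1 and 2 lay among the controls, and the log2 fold change of 0.16 (SE 0.151, edgeR adjusted p = 0.632) turned to -0.04 without OE replicate 3. S100A16 was at 127, 134 and 162 CPM in the controls and at 155, 162 and 213 CPM in OE, which overlap at control replicate 3. Its log2 fold change was 0.32 (SE 0.152, edgeR adjusted p = 0.329), and 0.16 without OE replicate 3.

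**Figure D3:**
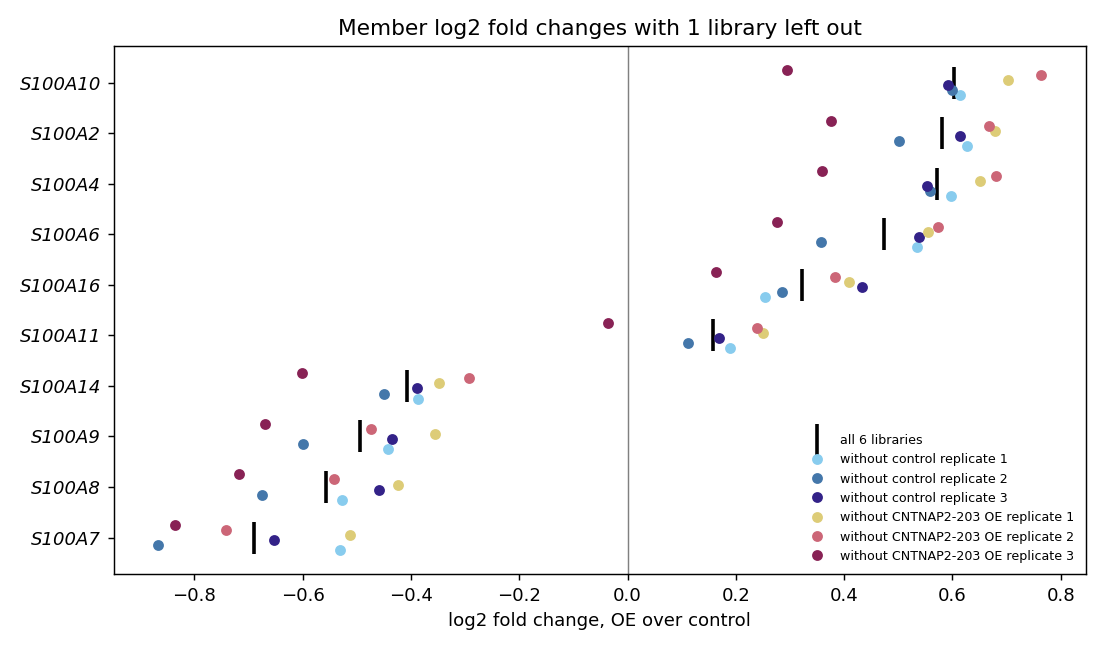
Log2 fold change of each member with all 6 libraries (black bars) and with 1 library left out (points). Leaving out OE replicate 3 shifts all 10 members to the left, and takes S100A11 from 0.16 to -0.04.

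Ratios between members inside a library do not depend on how libraries are scaled to each other. The size of a ratio in FPKM does depend on the gene lengths used, so it is compared between libraries only. The FPKM of S100A8 was 20.4%, 20.6% and 22.0% of that of S100A9 in control replicates 1, 2 and 3 and 20.4%, 20.3% and 19.9% in OE replicates 1, 2 and 3. The transcripts of the 2 calprotectin subunits thus kept a nearly constant ratio in all 6 libraries, OE replicate 3 included. The FPKM of S100A2 was 8.46%, 8.93% and 8.24% of that of S100A9 in the controls and 19.2%, 16.2% and 18.5% in OE. The groups lay far apart by this measure, and OE replicate 3 lay between the other OE libraries. For S100A7 the share of S100A9 was 34.3%, 26.4% and 29.5% in the controls and 24.5%, 29.1% and 25.6% in OE, which overlap. These pairs were chosen after their values were seen, so no test is given.

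**Figure D4:**
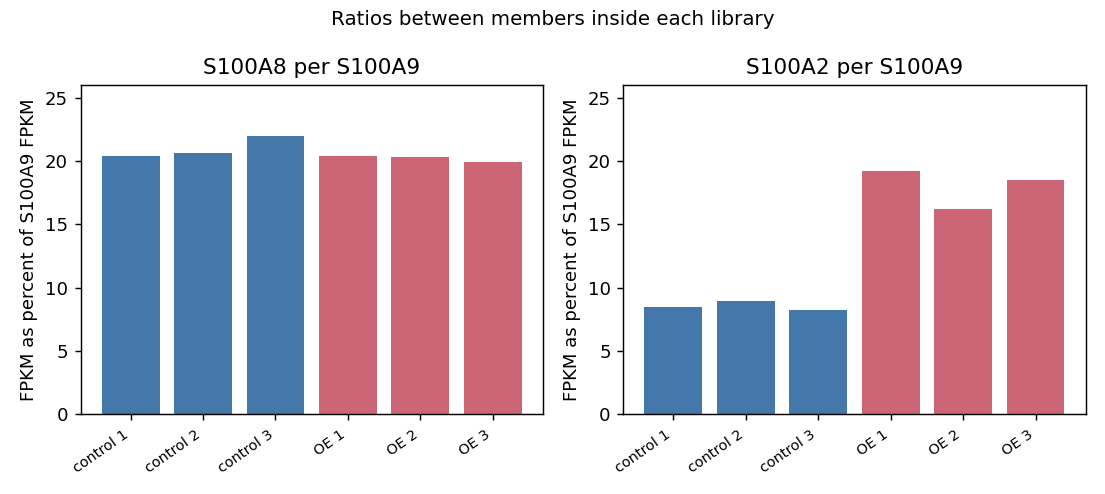
FPKM of S100A8 (left) and of S100A2 (right) as a percent of that of S100A9, 1 bar per library, with control in blue and CNTNAP2-203 OE in red. The S100A8 bars are all between 19.9% and 22.0%, and the S100A2 bars are 8.24% to 8.93% in control and 16.2% to 19.2% in OE.

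Likeness over the 6 libraries was measured by Pearson r of log2 CPM against all other tested genes. Of 18785 genes, S100A8 had rank 2 in likeness to S100A9 (r = 0.993), after ACSL6 (0.995) and ahead of SLC22A18 (0.993), and S100A7 had rank 46 (0.965). For S100A10 the most alike were RPSA, GYG1 and POMP (each 0.998 to 0.999), S100A4 had rank 103 (0.985), and its partner ANXA2 rank 1343 (0.895). These r describe 6 libraries that share the group difference and the height of OE replicate 3.

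Along the chromosome, the members with lower means were not all neighbours. S100A9, S100A8 and S100A7 form a run that also holds the tested genes S100A12 and S100A7A, and S100A7L2, which had no counts. The log2 fold change of S100A7A was -1.10 (SE 0.211). That of S100A12 was -0.09, smaller in size than its SE of 0.214 (edgeR unadjusted p = 0.68). S100A14 stands apart from that run, between S100A16 (0.32) and S100A13 (0.39), which both had positive log2 fold changes. Of 13 tested genes beside the cluster that encode no S100 protein, none was called, 7 were positive and 6 negative, and the median was 0.02. The 2 with the smallest p were SLC27A3, a fatty acid transport protein (log2 fold change 0.48, edgeR adjusted p = 0.125), and ILF2, an RNA-binding protein (0.34, edgeR adjusted p = 0.184).

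**Figure D5:**
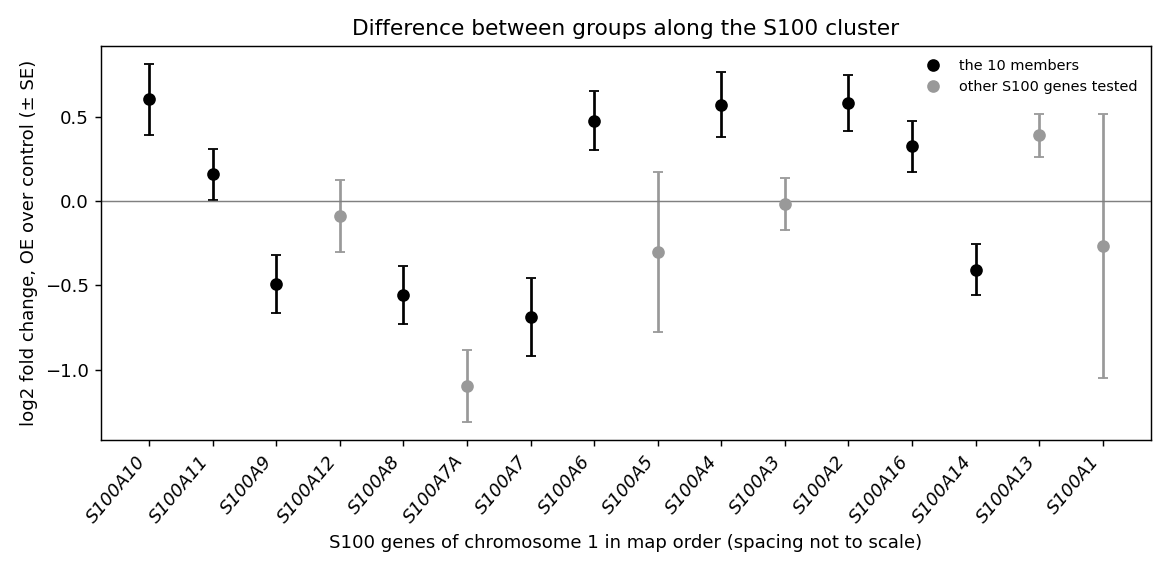
Log2 fold change with its SE for the tested S100 genes of chromosome 1 in map order, with the 10 members in black and other S100 genes in grey. S100A9, S100A12, S100A8, S100A7A and S100A7 follow each other among the tested genes and are all below 0, S100A12 by less than its SE. S100A7A is lowest at -1.10.

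Of the 11 other S100 genes, 7 passed the low-count filter and 4 (S100A7L2, S100B, S100G and S100Z) had no counts in any library. None of the 7 was called, and 6 had negative log2 fold changes, with a median of -0.27. S100A7A (koebnerisin), the copy next to S100A7, was at 140, 115 and 142 CPM in the controls and at 59.8, 80.9 and 44.7 CPM in OE, with no overlap. Its log2 fold change of -1.10 (SE 0.211, edgeR adjusted p = 0.0579) was larger in size than that of any member. It passed without OE replicate 2 (edgeR adjusted p = 0.0388), without OE replicate 3 (edgeR adjusted p = 0.0455) and by DESeq2 (adjusted p = 9.35e-05). In the other 13 of 16 alternatives it did not pass, with an edgeR adjusted p of up to 0.212 (without control replicate 3).

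S100P, on chromosome 4, was at 4.94, 2.76 and 4.85 CPM in the controls and at 2.29, 2.37 and 2.14 CPM in OE, also without overlap (log2 fold change -0.88, SE 0.254, edgeR adjusted p = 0.142). S100A13, which takes part in the release of signal-less proteins, was at 26.8 ± 2.06 CPM in control and 35.1 ± 4.09 in OE (log2 fold change 0.39, edgeR adjusted p = 0.176), and it shares exon sequence with S100A1 on the other strand. S100A3 (log2 fold change -0.02), S100A12 (-0.09), S100A1 (-0.27) and S100A5 (-0.30) had unadjusted p of 0.914, 0.68, 0.744 and 0.542. Of the large epidermal proteins with an S100-type end, 5 of 7 were tested and none was called. TCHH, trichohyalin (log2 fold change 0.45, edgeR adjusted p = 0.27), and RPTN, repetin (0.83, edgeR adjusted p = 0.429), had the smallest p.

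The genes of proteins that S100 proteins bind inside the cell did not pass either: of 12 tested none was called, 9 were positive and the median was 0.11. CACYBP, the S100A6 partner, was at 74.2 ± 6.37 CPM in control and 108 ± 11.6 in OE (log2 fold change 0.53, edgeR adjusted p = 0.0775), and it shares exon sequence with MRPS14 on the opposite strand. ANXA5, annexin A5, was at 86.4 ± 1.63 and 110 ± 6.74 CPM (0.35, edgeR adjusted p = 0.112). ANXA2, the S100A10 partner, was at 1467 ± 80.5 and 1649 ± 115 CPM (0.17, edgeR adjusted p = 0.425).

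Receptors and adaptors of released S100 proteins gave no call among 8 tested, with a median of -0.02. TLR4, a receptor of calprotectin, was low in both groups, at 0.339 ± 0.0846 CPM in control and 0.844 ± 0.169 in OE (log2 fold change 1.31, SE 0.355, edgeR adjusted p = 0.126), and AGER was at 5.21 ± 0.697 and 4.65 ± 0.390 CPM (-0.16, edgeR adjusted p = 0.66).

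Among 12 tested EF-hand genes outside the family, 9 were positive and the median was 0.17. By the edgeR test 1 was called as lower and none as higher, against 0.596% and 0.798% of all tested genes. The gene was CALML6, a calmodulin-like gene, at 4.19, 4.64 and 5.07 CPM in the controls and 1.20, 1.40 and 2.14 CPM in OE (log2 fold change -1.55, SE 0.251, edgeR adjusted p = 0.0374). Leaving out a single library ended that call in 5 of 6 cases, all but OE replicate 3, with an edgeR adjusted p of up to 0.179. Among 12 tested regulators of keratinocyte differentiation, 11 were negative, beside 9471 of all 18786 tested genes, and the median was -0.45. The levels of only 3 of the 12 did not overlap between the groups, beside 26.5% of all tested genes. Again 1 was called as lower and none as higher. The gene was ZNF750, a transcription factor of terminal epidermal differentiation, at 35.5, 37.6 and 36.1 CPM in the controls and 18.6, 16.3 and 17.0 CPM in OE (log2 fold change -1.07, SE 0.108, edgeR adjusted p = 0.00937). The call of ZNF750 held in 12 of 16 alternatives, among them without OE replicate 1, 2 or 3 (edgeR adjusted p = 0.0428, 0.0325 and 0.00677). Without control replicate 1, 2 or 3 its edgeR adjusted p was 0.0621, 0.0753 and 0.0653, and with a block for replicate number it was 0.0642.

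S100A8, S100A9 and S100A12 are also genes of myeloid cells. Of 9 leukocyte markers on the list, 4 passed the low-count filter and none was called. The summed level of the list was 52.5 to 71.6 CPM in the controls and 56.8 to 64.7 CPM in OE. Nearly all of it came from CD14, at 31.6, 22.3 and 30.3 CPM in the controls and 21.6, 25.3 and 28.0 CPM in OE, and from CD68, at 36.6, 27.8 and 28.8 CPM and 32.3, 35.6 and 33.7 CPM. Both genes were thus present in every library, at overlapping levels in the 2 groups. ITGAM (log2 fold change 0.28, edgeR adjusted p = 0.564) and CD3E (-0.50, edgeR adjusted p = 0.57), 2 further markers with low counts, did not pass. FCGR3B and MS4A1 had no counts in any library, and PTPRC, the pan-leukocyte marker, had 0, 5 and 0 counts in the controls and 3, 0 and 0 in OE. Fibroblast markers summed to 40.9 to 45.9 CPM in control and 40 to 42.9 in OE, and endothelial markers to 5.98 to 9.58 and 7.74 to 11.5 CPM, with none called of the 4 and 2 tested. The smallest p were those of PDGFRB (log2 fold change 0.61, edgeR adjusted p = 0.389) and COL1A1 (-0.20, edgeR adjusted p = 0.487) among fibroblast markers and of CDH5 (0.40, edgeR adjusted p = 0.468) and VWF (-0.14, edgeR adjusted p = 0.814) among endothelial ones.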

How the data were processed

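Total RNA of CAL27 cells was cleared of ribosomal RNA and 6 libraries were built with a TruSeq RNA kit, per the labels' protocols. Reads were trimmed with Trim Galore 0.4.4, and the build was hg38, per the submitters' processing notes. For the aligner, counter and annotation: not given in the sources used here. Reverse reads of control replicate 1 were missing at submission, per its label, and no source used here says whether its counts used both reads. The authors deposited raw counts per gene (whole numbers, not normalized) and log2 values of FPKM, from which FPKM was taken here as the power of 2 less an offset of 1.

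Groups came from the sample titles. Counts were tested with edgeR 4.0.16 in R 4.3.3 (filterByExpr with a minimum count of 10, TMM, robust quasi-likelihood test, Benjamini-Hochberg adjustment over 18786 genes, threshold 0.05). Each SE is the size of the log2 fold change over the root of its F statistic. The code was tested on simulated counts. No 2 libraries of a group agreed within sampling noise (chi-square per degree of freedom 29.6 to 79.8). Alternatives were DESeq2 1.42.0, limma 3.58.1 (voom, and trend on log2 FPKM), other scalings and filters, a replicate block, leaving out each library and, added after seeing the data, removal of length and GC trends with mgcv 1.9.3. Promoter windows are from RefSeq and all 10 members matched by symbol.

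The members and lists were chosen with earlier results of these data known. Named genes were the members, the other tested S100 genes, CNTNAP2, and in each other list the called genes or else the 2 with the smallest p. KRT5, ANXA2, CD14, CD68, PTPRC, FCGR3B and MS4A1 were chosen after their values were seen. Likeness is the Pearson r of log2 CPM, and the 3 genes with a symbol and the highest r are named.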

Additional observations from a re-analysis of the deposited data

How the results depend on the processing

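Over 16 alternatives and 10 members (160 values), 155 kept their direction and their side of the threshold, 4 passed where the reported value did not, and 1 turned: S100A11, at -0.036 without OE replicate 3 (edgeR adjusted p = 0.857) and up to 0.25 without another library. The number of members called was 0 over all libraries, 3 with DESeq2, 0 to 1 with 1 library left out, and 0 in the other alternatives. All genes called numbered 262, and 1063 with DESeq2, 167 without robust shrinkage, 165 by limma-trend on log2 FPKM, 463 with length and GC trends removed, and 14 to 545 with 1 library left out (545 without OE replicate 3, and 14 to 73 without any one of the others). Called genes of the other lists numbered 2, and 12 with DESeq2, 4 with length and GC trends removed and 0 to 5 with 1 library left out (5 without OE replicate 3). The replicate numbers did not pair the libraries (correlation of same-numbered deviations -0.082, 0.045 and -0.028). With the replicate block 17 genes were called, 0 of them members and 0 of the other lists. Apart from S100A11, no direction of a member changed. The cause of these differences was not tested. Apart from S100A4, the lowest count of a member in a library was 5042 (S100A16), so for those genes the spread between libraries, more than depth, limits the comparison.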
